A study of Mus musculus with 6 samples.

Results

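The receptors of the ErbB family and the growth factors that bind them were followed as a group of 10 genes, made up of the 4 receptor genes Egfr, Erbb2, Erbb3 and Erbb4 and the 6 ligand genes Areg, Ereg, Hbegf, Nrg1, Tgfa and Btc. Genes were members by family and not by how they differed on these arrays. Their probes were found by transcript accession, which gave 12 probes, 3 for Egfr and 1 for each other gene, among 27235 probes matched to 20660 genes. A filter on low signal left 20448 probes of 15734 genes for testing. It kept 11 member probes of 9 genes and removed the probe for Erbb4. Btc passed it through the fetal and Ereg through the adult basal population alone, and a gene that passes in this way had to be higher there, so counts of tested genes are descriptions.

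ErbB receptors are tyrosine kinases of the cell surface that work in pairs. A ligand is usually made as a membrane-bound precursor, is cut free by a sheddase, and brings receptors together, after which adaptors couple them to the Ras-ERK and PI3-kinase pathways. In the mammary gland, Egfr and its ligand amphiregulin are known for their role in ductal growth at puberty, and the neuregulins and their receptors for lobuloalveolar development.

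RNA came from freshly sorted mammary cells of female C57Bl6J mice, with 3 biological replicates of each of 2 populations and 1 one-color Agilent array per replicate. The fetal population was taken at E18.5 and sorted as EpCAM++CD49f+ cells that lacked CD31, CD45 and Ter119. The adult basal population was taken at 8 to 12 wk and sorted as EpCAM+CD49f+ cells that lacked these 3 antigens and also BP-1. The labels name no transgene or agent for either population. Adult glands were digested overnight and fetal glands for a much shorter time, so developmental stage, the gate on EpCAM and the length of digestion cannot be told apart in any difference below. On each array 59305 spots were read, no spot was saturated, and the share of probes well above background ran from 76.4% to 83.3%.

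Values are log2 quantile-normalized signals, on which a difference of 1 is a 2-fold change. Differences are fetal minus adult basal, with the standard error (SE) from limma. A probe was called when its Holm-adjusted p from limma over the 20448 tested probes was at most 0.05 and it differed by at least 2-fold, which are the thresholds of the study's methods, and Benjamini-Hochberg adjustment of the same p-values was used as a second, less strict rule. Different probes bind with different brightness, so levels are compared between populations and not between genes. The brightest probe of a list, by mean log2 signal, is named as a description and does not rank RNA levels. An exact permutation test of 3 arrays against 3 cannot give a p below 0.1, and none is quoted. In RNA of a whole population, fewer cells that express a gene and less of its RNA per cell cannot be told apart.

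Of the 9 members tested, 2 were called with Holm adjustment, Erbb3 higher in fetal cells and Egfr higher in adult basal cells. Over all 15725 genes whose brightest probe was tested, 11.2% were called by this rule, 6.02% higher in fetal and 5.20% higher in adult basal cells. With Benjamini-Hochberg adjustment 7 of the 9 were called, with Erbb3, Areg, Hbegf, Nrg1 and Btc higher in fetal and Egfr and Ereg higher in adult basal cells, against 29.7% of all these genes (15.8% higher in fetal and 13.9% higher in adult basal cells). The 2 populations did not overlap for any of the 9 tested members, but 68.4% of all these genes did not overlap either. The median size of the difference was 3.01 log2 units over the 9 members and 0.53 over all these genes. The 9 include Btc and Ereg, which passed the low-signal filter through 1 population alone, so their median size is a description too. At an unadjusted p under 0.05 (limma), which is given below for lists with few calls, 31.8% of these genes were higher in fetal and 32.0% higher in adult basal cells.

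**Figure D1:**
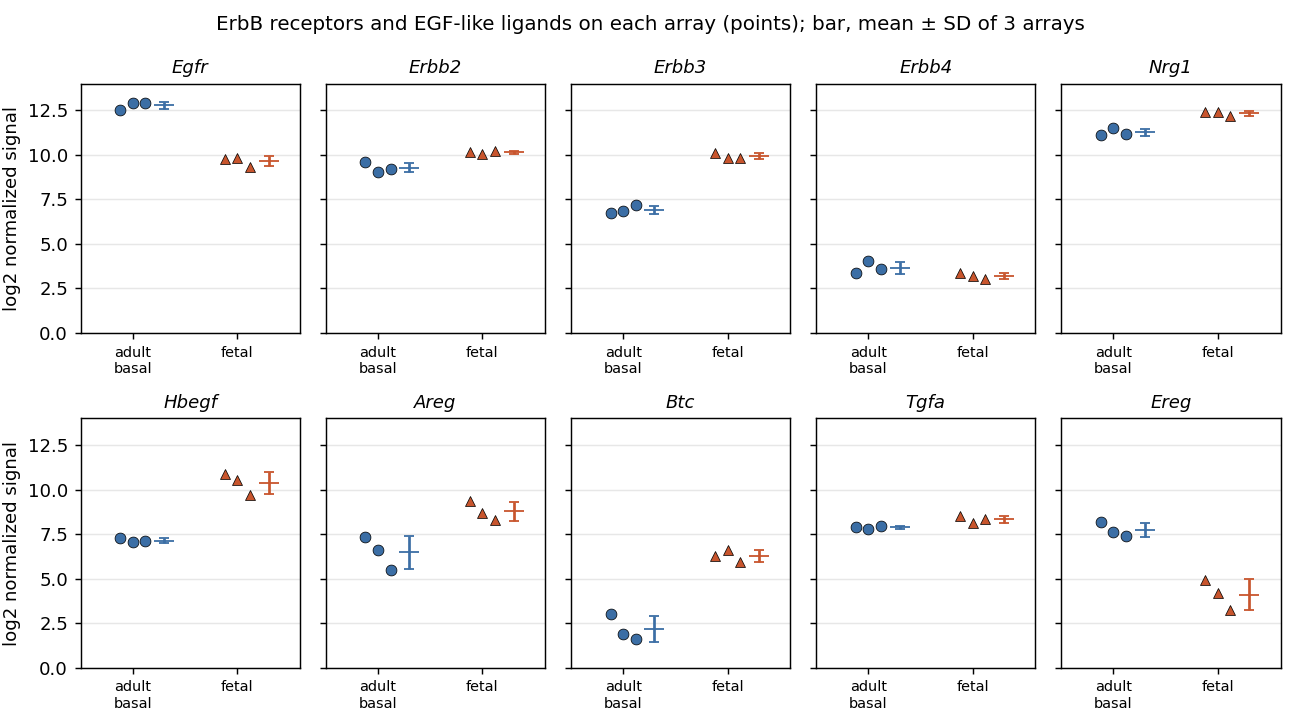
Log2 normalized signal of each member gene on each of the 6 arrays, 1 panel per gene (x axis, population; y axis, log2 normalized signal). Circles are adult basal and triangles fetal arrays, and the bars are the mean ± SD of 3 arrays. Fetal arrays lie below all adult basal arrays for Egfr and Ereg, above them for the other 7 tested genes, and for Erbb4 the populations overlap by 1 fetal array.

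Egfr was lower and Erbb3 higher in fetal cells. Egfr, the receptor for EGF, transforming growth factor alpha and amphiregulin, had values of 12.54, 12.89 and 12.90 on the adult basal arrays and 9.79, 9.81 and 9.31 on the fetal arrays. Every adult basal array was far above every fetal array. The difference was -3.14 (SE 0.18, 95% interval -3.56 to -2.73), an 8.84-fold lower signal in fetal cells, at a Holm-adjusted p of 0.0061 (limma). Within the 2 slides the difference was -2.93 and -3.33, where the direction was fixed because the populations did not overlap. Slide 1 held only fetal replicate 1 of the fetal arrays, and slide 2 only adult basal replicate 2 of the adult basal arrays.

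Egfr was measured by 2 more probes, both annotated to the RefSeq transcript NM_007912, whereas the main probe is annotated to NM_207655. One gave 9.91, 10.10 and 10.01 in adult basal and 7.99, 8.00 and 7.95 in fetal samples, and the other 9.01, 9.48 and 9.23 against 6.86, 6.65 and 6.93. Both were called, with differences of -2.03 (Holm-adjusted p = 0.0023, limma) and -2.43 (Holm-adjusted p = 0.011, limma). All 3 probes placed Egfr lower in fetal cells. The call of the main probe was lost when adult basal replicate 3 (Holm-adjusted p = 0.066, limma), fetal replicate 1 (0.076) or fetal replicate 2 (0.058) was left out, with the replicate block (0.057) and with no low-signal filter (0.061).

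Erbb3, which binds neuregulins and has little kinase activity of its own, read 6.74, 6.87 and 7.17 on adult basal arrays and 10.13, 9.85 and 9.84 on fetal arrays. The fetal arrays lay within a narrow range well above the adult ones. The difference was 3.01 (SE 0.15, 95% interval 2.66 to 3.36), an 8.07-fold higher signal in fetal cells, at a Holm-adjusted p of 0.0026 (limma). Erbb3 was called under all 18 alternative settings and left-out arrays, with differences between 2.53 and 3.14.

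Erbb2, the family member with no known ligand and a favored partner of the others, gave 9.58, 9.05 and 9.23 in adult basal and 10.18, 10.05 and 10.22 in fetal samples. Its populations did not overlap, but the difference of 0.86 (SE 0.15, 95% interval 0.51 to 1.22) was under 2-fold and not called by either rule (Holm-adjusted p = 1, Benjamini-Hochberg-adjusted p = 0.0018, limma).

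Erbb4, a further neuregulin receptor, stayed near background, and on none of the 6 arrays was its probe well above it. It read 3.37, 4.05 and 3.58 on adult basal and 3.38, 3.19 and 3.04 on fetal arrays, and the populations overlapped through fetal replicate 1 alone. No difference was therefore tested, and the arrays do not show whether Erbb4 RNA was present at a low level.

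**Figure D2:**
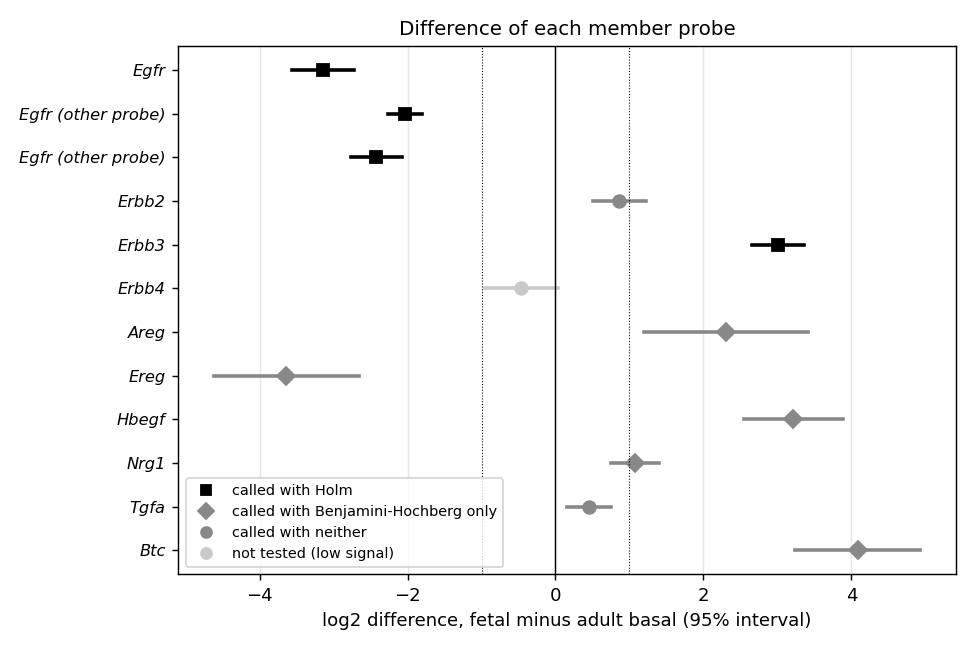
Difference between fetal and adult basal cells for each of the 12 member probes (x axis, log2 difference, with dotted lines at a 2-fold change). Horizontal lines are 95% intervals from limma and the symbols give the call; the intervals of the 3 Egfr probes and of Ereg lie below -1, and those of Erbb3, Hbegf, Areg and Btc above 1.

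The genes whose brightest probe followed each receptor most closely over the 6 arrays were sought among 15724 others, by the Euclidean distance of values centered on each probe's own mean. They were Bcl6 (distance 0.22) and Jcad (0.29) for Egfr, Lrrc75a (0.28) and Ror1 (0.32) for Erbb3, and Cmc1 (0.09) and Trap1 (0.11) for Erbb2. Because the choice used all 6 arrays, it also fixed their differences near those of the receptors.

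Among ligands, the neuregulin encoded by Nrg1 binds Erbb3 and Erbb4. Nrg1 gave 11.12, 11.51 and 11.17 on adult basal arrays and 12.40, 12.43 and 12.19 on fetal arrays. It was well above background on all arrays of both populations. The difference of 1.07 (SE 0.14, 95% interval 0.75 to 1.40), a 2.11-fold higher signal in fetal cells, was called with Benjamini-Hochberg adjustment (adjusted p = 0.00038 in the limma fit) and not with Holm adjustment.

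Hbegf, Btc and Ereg encode ligands that bind both Egfr and Erbb4. Hbegf (heparin-binding EGF-like growth factor) read 7.30, 7.04 and 7.09 on adult basal arrays and 10.87, 10.52 and 9.68 on fetal arrays. Fetal replicate 3 was the lowest of its population and still far above the adult values. The difference was 3.21 (SE 0.28, 95% interval 2.55 to 3.88), or 9.28-fold, with an adjusted p of 5.4e-05 by Benjamini-Hochberg and 0.14 by Holm in limma. Without fetal replicate 3 the Holm-adjusted p was 0.0079.

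Btc (betacellulin) was well above background on all fetal arrays and on none of the adult basal arrays. Values were 3.01, 1.90 and 1.64 in adult basal and 6.28, 6.61 and 5.92 in fetal samples. Because the adult value is only a bound, the fetal signal is given as at least 5.63-fold higher, where a reading of an adult array under the lowest signal that counts as well above background was raised to that signal. The fitted difference had an adjusted p of 5.1e-05 by Benjamini-Hochberg and 0.13 by Holm in limma, and 0.016 by Holm without adult basal replicate 1.

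Ereg (epiregulin) was the one ligand of these 6 with a higher signal in adult basal cells. It gave 8.20, 7.62 and 7.41 on adult basal arrays and 4.93, 4.18 and 3.22 on fetal arrays, of which 2 were well above background, so that the size of its difference is uncertain. The lowest adult value was well clear of the highest fetal value. The difference was -3.64 (SE 0.42, 95% interval -4.62 to -2.65), with an adjusted p of 2e-04 by Benjamini-Hochberg and 0.73 by Holm in limma.

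Areg and Tgfa encode ligands of Egfr. Areg (amphiregulin), which had the largest SD of the members in adult basal cells (0.94), gave 7.33, 6.62 and 5.47 there and read 9.35, 8.67 and 8.31 on fetal arrays. All fetal values were above all adult values. The difference was 2.30 (SE 0.47, 95% interval 1.19 to 3.42), or 4.94-fold, with an adjusted p of 0.0041 by Benjamini-Hochberg and 1 by Holm in limma. Tgfa (transforming growth factor alpha) gave 7.91, 7.77 and 7.95 against 8.50, 8.14 and 8.36, a difference of 0.45 (SE 0.12) that was under 2-fold and not called by either rule.

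Areg, Btc and Ereg lie side by side. In the RefSeq annotation of the GRCm38.p6 assembly they form, with the related ligand gene Epgn, an unbroken run of 4 protein-coding genes on chromosome 5 in the order Epgn, Ereg, Areg and Btc. Areg and Btc were called higher in fetal and Ereg higher in adult basal cells with Benjamini-Hochberg adjustment, where the direction of Btc and Ereg was fixed by the low-signal filter. With no filter the adjusted p was 0.00032 for Btc and 0.00098 for Ereg (Benjamini-Hochberg, limma). Epgn gave 9.76, 9.75 and 9.54 in adult basal and 10.36, 10.19 and 10.07 in fetal samples, a difference of 0.52 (SE 0.12) that was under 2-fold.

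RefSeq promoter windows were at hand for 6 of the 10 members. The 250 bases before the start of Areg and of Egfr are shown because the fetal signal of one was higher and that of the other lower. On GRCm38.p6 these are chr5:91139349-91139598 on the plus strand for Areg and chr11:16751953-16752202 on the plus strand for Egfr, and capitals mark the motifs found.
Areg: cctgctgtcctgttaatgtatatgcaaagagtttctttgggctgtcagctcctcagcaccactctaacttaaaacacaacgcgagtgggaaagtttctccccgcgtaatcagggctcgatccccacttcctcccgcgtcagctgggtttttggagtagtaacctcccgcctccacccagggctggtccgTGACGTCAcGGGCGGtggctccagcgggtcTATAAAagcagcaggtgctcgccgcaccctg
Egfr: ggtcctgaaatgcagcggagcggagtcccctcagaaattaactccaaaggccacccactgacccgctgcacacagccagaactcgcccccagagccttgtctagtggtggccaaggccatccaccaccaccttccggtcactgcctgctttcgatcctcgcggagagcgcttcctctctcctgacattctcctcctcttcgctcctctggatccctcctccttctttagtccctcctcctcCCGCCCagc
The letters searched on both strands were TGACGTCA (the cAMP response element, a palindrome), TGANTCA (the AP-1 site), GGGCGG (the GC box) and TATAAA (the TATA box). The Areg window held the first from 61 to 54 bases before the start, a GC box from 52 to 47 and a TATA box from 31 to 26. In the Egfr window a GC box on the minus strand, from 9 to 4 bases before the start, was the only match. The Tgfa window held 2 GC boxes, from 126 to 121 and, on the minus strand, from 15 to 10 bases before the start, and the windows of Erbb2, Erbb4 and Btc held none of these letters. Among 32851 promoter windows of the same length, 1.5% held TGACGTCA, 6.7% TGANTCA, 32.7% GGGCGG and 12.4% TATAAA. A match is a description of the sequence, and the arrays carry no measurement of binding there.

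The remaining EGF-like ligands on the arrays were Egf, Epgn, Nrg2, Nrg3 and Nrg4, of which 3 were tested. None was called with Holm adjustment. Nrg2 and Nrg4, both neuregulins, were called higher in fetal cells with Benjamini-Hochberg adjustment, beside 15.8% of all genes. Nrg2 read 9.58, 9.36 and 7.77 on adult basal arrays and 11.06, 11.23 and 11.22 on fetal arrays, a difference of 2.26 (SE 0.44, adjusted p = 0.003 by Benjamini-Hochberg, limma), and its second probe, at 1.23 (95% interval -0.10 to 2.55), was not called. Nrg4 gave 4.81, 5.38 and 4.26 against 5.83, 6.49 and 6.19, a difference of 1.35 (SE 0.29, adjusted p = 0.0053, Benjamini-Hochberg, limma). Its second probe was below the filter and differed by 0.31 (95% interval -0.22 to 0.84), with overlapping populations. For the brightest probe of both genes, adult basal replicate 3 was the lowest array. That of Nrg4 passed the low-signal filter through the fetal population alone.

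The proteins that release the ligands were counted by their brightest probes. Of the 9 tested sheddases and iRhoms, the latter being proteins that bring the sheddase Adam17 to the cell surface, none was called with Holm adjustment. With Benjamini-Hochberg adjustment 1 was called higher in adult basal cells, which is near the 13.9% of all genes, and 0 in fetal cells, beside 15.8%. At an unadjusted p under 0.05 (limma) there were 4 in each direction, where the shares of all genes were 31.8% and 32.0%. The called gene was Adam19, which can cleave neuregulins, at 10.23, 10.28 and 9.86 in adult basal and 8.80, 8.49 and 8.66 in fetal samples. Its difference was -1.47 (SE 0.15, adjusted p = 1e-04, Benjamini-Hochberg, limma). The probes of the sheddase Adam12 disagreed, since the brightest differed by -0.41 and was not called, while the others, at -1.15 and at least 5.72-fold lower in fetal cells, were called with Benjamini-Hochberg adjustment (adjusted p = 0.00061 and 4e-05, limma). Both of these passed the low-signal filter through adult basal cells alone, which fixed their direction. The list median was -0.30, against -0.04 over all tested genes.

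Of 10 inhibitors of the receptors and their ubiquitin ligases, none was called with Holm adjustment, and the 3 that were lower at an unadjusted p under 0.05 (limma) are near the 32.0% of all genes; 0 were higher. Among them Lrig1 and Lrig3 were called lower in fetal cells with Benjamini-Hochberg adjustment, beside 13.9% of all genes. Both belong to a family of membrane proteins of which Lrig1 restrains ErbB receptors. Lrig1 gave 11.84, 11.64 and 11.95 in adult basal and 10.62, 10.67 and 10.58 in fetal samples, a difference of -1.18 (SE 0.11, adjusted p = 8e-05, Benjamini-Hochberg, limma). For Lrig3 the difference was -1.32 (SE 0.31, adjusted p = 0.0079, Benjamini-Hochberg, limma). The list median was -0.26.

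Of 24 adaptors and other proteins that act next to the receptors, 1 was called higher in fetal and 3 higher in adult basal cells with Holm adjustment, beside 6.02% and 5.20% of all genes. Pik3r3, a regulatory subunit of PI3-kinase, gave 6.35, 5.59 and 6.64 on adult basal arrays and 11.03, 11.08 and 10.89 on fetal arrays. Its difference of 4.81 (SE 0.25, Holm-adjusted p = 0.0042, limma) was the largest in this list, and the populations were far apart. Vav3 differed by -2.05 (SE 0.11), Stat5a, a transcription factor of the mammary epithelium, by -1.73 (SE 0.13), and Pik3ca, a catalytic subunit of PI3-kinase, by -1.37 (SE 0.10), with Holm-adjusted p-values of 0.0059, 0.047 and 0.04 in limma.

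With Benjamini-Hochberg adjustment 3 of the 24 adaptors were called higher in fetal and 6 higher in adult basal cells, beside 15.8% and 13.9% of all genes, and the list median was -0.28. These Holm calls depended on single arrays and on the settings. The call of Pik3r3 was lost without adult basal replicate 1 or without any 1 fetal replicate. Calls higher in adult basal cells fell from 3 to 2 without adult basal replicate 2 and to 0 without any 1 of the other arrays, to 0 with the replicate block, and to 1 with the slide block, with no low-signal filter and with a filter on detection above background.

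**Figure D3:**
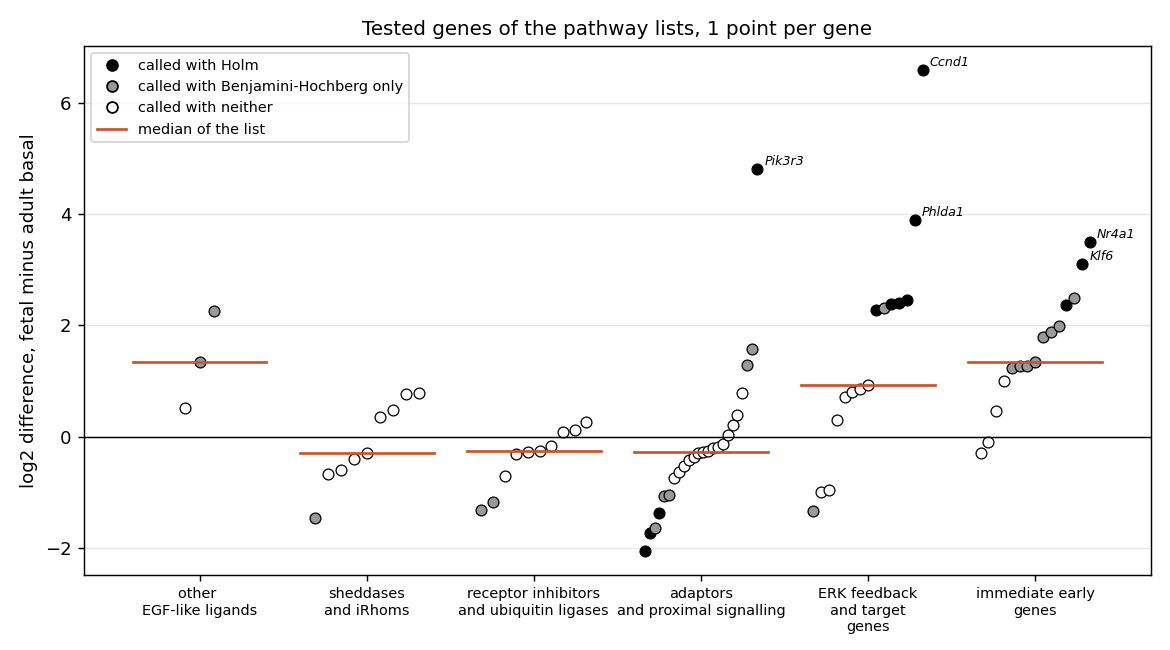
Difference between fetal and adult basal cells for each tested gene of 6 lists around the ErbB pathway (x axis, list; y axis, log2 difference). Black points were called with Holm adjustment, grey points with Benjamini-Hochberg adjustment alone and open points with neither, orange lines are list medians, and called genes that differed by over 2.9 log2 units are named. Medians lie between -0.30 and -0.26 for sheddases, inhibitors and adaptors and at 0.93 for ERK feedback and target genes.

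Genes known to be transcribed downstream of ERK were called mainly in the fetal direction. Of 15 tested, 6 were called higher in fetal and 0 in adult basal cells with Holm adjustment, beside 6.02% and 5.20% of all genes. The counts were 7 and 1 with Benjamini-Hochberg adjustment, beside 15.8% and 13.9% of all genes. At an unadjusted p under 0.05 (limma) they were 11 and 3, where the shares of all genes were 31.8% and 32.0%. The list median was 0.93, against -0.04 over all tested genes. Other receptors also feed into ERK and these genes answer to other pathways too. The Holm count was 4 or 5 when any 1 array was left out, and 1 of the 15, Spry4, passed the low-signal filter through fetal cells alone.

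The cell-cycle gene Ccnd1 (cyclin D1) had the largest difference of this list, at 8.57, 7.78 and 8.35 in adult basal and 14.81, 14.82 and 14.82 in fetal samples. The fetal arrays were nearly identical and lay 6.59 log2 units (SE 0.20) higher, at a Holm-adjusted p of 7.9e-05 (limma). Phlda1, which encodes a pleckstrin homology-like domain protein, differed by 3.90 (SE 0.25, Holm-adjusted p = 0.014, limma), with adult basal replicate 3 the lowest array at 10.59.

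Phosphatases that switch ERK off and ETS transcription factors induced by it made up the other calls. Dusp5 read 6.38, 6.18 and 6.20 on adult basal arrays and 9.02, 8.46 and 8.64 on fetal arrays, a difference of 2.46 (SE 0.16, Holm-adjusted p = 0.017, limma). Etv5 gave 13.03, 12.91 and 12.78 against 15.19, 15.35 and 15.40, a difference of 2.41 (SE 0.11, Holm-adjusted p = 0.0019, limma). In each case the populations were well apart.

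Named here after their values had been seen, Etv1 and Dusp6 completed the 6 called genes, at 2.39 and 2.27, and Myc was the one called higher in adult basal cells with Benjamini-Hochberg adjustment. Myc, a transcription factor that promotes growth, gave 12.64, 12.95 and 12.68 in adult basal and 11.53, 11.39 and 11.33 in fetal samples, a difference of -1.34 (SE 0.12, adjusted p = 6.6e-05, Benjamini-Hochberg, limma). Spred2, an inhibitor of Ras-ERK signaling, differed by -0.96 (SE 0.10) and was under 2-fold. Ier3, also of this list, was lower on every fetal array than on every adult basal array. Its difference of -1 (SE 0.18) fell just short of 2-fold before rounding, so it was called by neither rule.

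**Figure D4:**
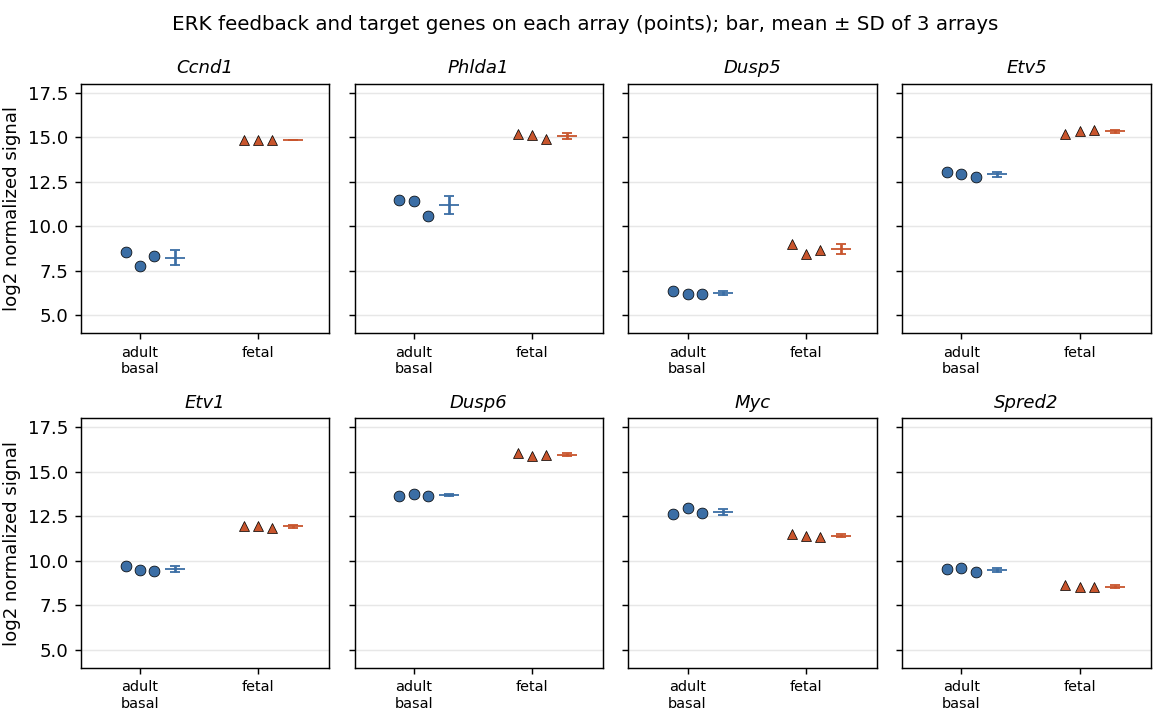
Log2 normalized signal of 8 ERK feedback and target genes on each of the 6 arrays, 1 panel per gene (x axis, population; y axis, log2 normalized signal; symbols and bars as for the receptors and ligands). The first 6 genes are those called higher in fetal cells with Holm adjustment; Myc and Spred2 lie lower on fetal arrays by 1.34 and 0.96.

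Immediate early genes are transcribed within minutes of growth factor stimulation and also when tissue is dissociated. All calls among them were in the fetal direction. Of 15 tested, 3 were called higher in fetal cells with Holm adjustment and 11 with Benjamini-Hochberg adjustment, beside 6.02% and 15.8% of all genes. The other 4 were called by neither rule. None was called higher in adult basal cells by either rule, beside 5.20% and 13.9% of all genes. None was higher there at an unadjusted p under 0.05 (limma), against 32.0% of all genes. The list median was 1.34. Summed over the list, the linear signal was 104387, 114947 and 118417 on adult basal arrays and 433092, 483986 and 471451 on fetal arrays, with the brightest probe that of Jun. Klf6, a zinc finger transcription factor, differed by 3.11 (SE 0.11), Nr4a1, an orphan nuclear receptor, by 3.50 (SE 0.24) and Fosb, an AP-1 subunit, by 2.36 (SE 0.12), with Holm-adjusted p-values of 0.00021, 0.026 and 0.0025 in limma. The Holm count fell to 1 without fetal replicate 1 and without fetal replicate 2, and the Benjamini-Hochberg count was 11 without any 1 array. One of these 11, Egr3, passed the low-signal filter through fetal cells alone.

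Hbegf, Areg and several genes of the ERK list are themselves induced quickly in stimulated cells. The part of dissociation or of the immediate early response in their fetal signal was not tested.

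Epithelial markers differed between the populations. Of 12 basal markers tested, 9 were called higher in adult basal and 0 in fetal cells with Holm adjustment, beside 5.20% and 6.02% of all genes. Smooth muscle genes were at the top, Myh11 at -8.63 (SE 0.18), Cnn1 at -6.01 (SE 0.25), Tagln at -4.87 (SE 0.19) and Mylk at -4.50 (SE 0.16). With Benjamini-Hochberg adjustment the counts were 9 and 1, beside 13.9% and 15.8% of all genes. The 1 higher in fetal cells was Vim, the intermediate filament vimentin, at 1.15 (SE 0.09, adjusted p = 2.8e-05, limma). Summed basal signal was 1250834, 1216082 and 1216224 on adult basal arrays and 127865, 118711 and 108549 on fetal arrays, with the brightest probe that of Acta2. The brightest probe of Trp63, a transcription factor of basal cells, differed by -0.08, but its other probe differed by -3.06 and was called, so its probes disagree.

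Of 14 luminal markers tested, 7 were called higher in fetal and 0 in adult basal cells with Holm adjustment, beside 6.02% and 5.20% of all genes. The leading genes were the transcription factors Elf5 at 7.55 (SE 0.16) and Foxa1 at 6.46 (SE 0.37), the tight junction gene Cldn3 at 4.39 (SE 0.15) and the receptor Kit at 4.0 (SE 0.16). With Benjamini-Hochberg adjustment 8 were called higher and 2 lower in fetal cells, beside 15.8% and 13.9% of all genes. The 2 lower were the keratins Krt7 at -1.29 (SE 0.24) and Krt19 at -1.22 (SE 0.16). The brightest probe of the estrogen receptor gene Esr1 was below the filter, and differed by -1.06, while another of its probes passed through adult basal cells alone, was well above background on 1 fetal array and was called lower in fetal cells (adjusted p = 8.6e-05, Benjamini-Hochberg, limma). The brightest probe of the prolactin receptor gene Prlr differed by -0.35 and its other probe, which was called with Holm adjustment, by 1.85. Elf5 passed the filter through fetal cells alone, as Myh11 did through adult basal cells. Summed luminal signal was 140545, 132987 and 133929 on adult basal and 267498, 279200 and 221668 on fetal arrays, with the brightest probe that of Krt18. The luminal Holm count was between 3 and 5 without any 1 array, at 4 without fetal replicate 1 and at 3 without adult basal replicate 3, fetal replicate 2 or fetal replicate 3. It was also 3 with no low-signal filter. Erbb3 is known as a receptor of luminal mammary cells and Egfr is found in basal and stromal cells, and the part of these lineage differences in the receptor results was not tested.

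Markers of cells that the sorts should remove were also followed. Of 8 fibroblast markers tested, 2 were called higher in adult basal cells with Holm adjustment, beside 5.20% of all genes. They were Dcn, a matrix proteoglycan, at -3.78 (SE 0.18) and Pdgfrb, a receptor of mesenchymal cells, at -4.34 (SE 0.17). Only 1 was called without fetal replicate 1. With Benjamini-Hochberg adjustment 3 were called higher in adult basal cells, beside 13.9% of all genes, and between 2 and 6 when each array was left out. At an unadjusted p under 0.05 (limma) there were 7 in that direction, against 32.0% of all genes, and 0 in the other. Summed fibroblast signal was 16145, 18659 and 26826 on adult basal and 5506, 5796 and 7117 on fetal arrays, with the brightest probe that of Col1a2. Of the 8, 2 (Pdgfrb and Fap) passed the low-signal filter through adult basal cells alone. On no fetal array was Dpt, a matrix protein of fibroblasts, well above background.

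Leukocyte and endothelial markers gave no Holm call in either direction among the 9 and 6 tested. With Benjamini-Hochberg adjustment 3 and 4 were called higher in adult basal cells, beside 13.9% of all genes. At an unadjusted p under 0.05 (limma) there were also 3 and 4 higher in adult basal cells, against 32.0% of all genes. None of either list was higher in fetal cells at this threshold, against 31.8% of all genes. The direction of most of these calls was fixed by the low-signal filter, since Lyz2, Cd52 and Tyrobp, all 3 of the leukocyte calls, and Cdh5, Emcn and Esam, 3 of the 4 endothelial calls, passed it through adult basal cells alone. The Holm count was 1 for endothelial markers without fetal replicate 3, with 75th percentile normalization and with the replicate block, and 1 for leukocyte markers with the replicate block. Summed leukocyte signal was 25034, 34204 and 28930 on adult basal and 34739, 29052 and 26571 on fetal arrays, with the brightest probe that of Itgam. Tyrobp differed by -2.80 (SE 0.61) and Cd52, which was well above background on 2 of the 3 fetal arrays, by -4.39 (SE 0.66), and both were highest on adult basal replicate 3. Summed endothelial signal was 14392, 15357 and 13259 against 12358, 10911 and 12784, with the brightest probe that of Kdr, and the brightest probe of Cd34 differed by -3.30 (SE 0.27) and its other probe by -0.91, which was not called, while Esam was well above background on 1 of the 3 fetal arrays, where it read 2.92, 3.77 and 4.84 against 7.81, 7.09 and 7.92 on adult basal arrays.

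Schwann cell, adipocyte and epidermal markers were followed because Nrg1, Erbb3 and EGF-like ligands are also made by such cells or their neighbors. Among 5 Schwann cell markers tested none was called with Holm adjustment. Only S100b was called higher in fetal cells with Benjamini-Hochberg adjustment, beside 15.8% of all genes. But S100b passed the filter through fetal cells alone and was well above background on 1 adult basal array (3.76, 2.24 and 4.07, against 6.69, 6.75 and 7.42 on fetal arrays). Foxd3 and Cdh19 were well above background on none of the arrays. Summed Schwann cell signal was 18222, 14228 and 15982 on adult basal and 16032, 17008 and 19415 on fetal arrays, with the brightest probe that of Sox10, which mammary epithelium also expresses. None of 5 adipocyte markers was called by either rule and 1 in each direction had an unadjusted p under 0.05 (limma), a smaller share than over all genes, with the brightest probe that of Fabp4 and summed signals of 2047, 1904 and 2374 against 1126, 947 and 2964. Fetal replicate 3 stood above the other fetal arrays for Adipoq (5.62, 3.99 and 8.17), Cfd (6.44, 4.42 and 9.19) and Fabp4 (8.43, 8.67 and 10.43). Adipoq passed the low-signal filter through fetal cells alone.

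All 3 epidermal markers tested were called higher in fetal cells with Benjamini-Hochberg adjustment and 1 with Holm adjustment, beside 15.8% and 6.02% of all genes. The Holm call was Krt10, a keratin of suprabasal epidermis, at 1.47 (SE 0.10), and it was lost when any 1 of the 6 arrays was left out. The other Krt10 probe differed by 0.98 and was called by neither rule. Krt1 and Krtdap passed the low-signal filter through fetal cells alone, so their direction was fixed by it, and Ivl and Dsg1a were not tested. Summed epidermal signal was 478, 500 and 454 on adult basal and 1672, 1394 and 1513 on fetal arrays, with the brightest probe that of Krt10. Epidermis is a known source of EGF-like ligands. The part of these other cells in the receptor and ligand results was not tested.

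**Figure D5:**
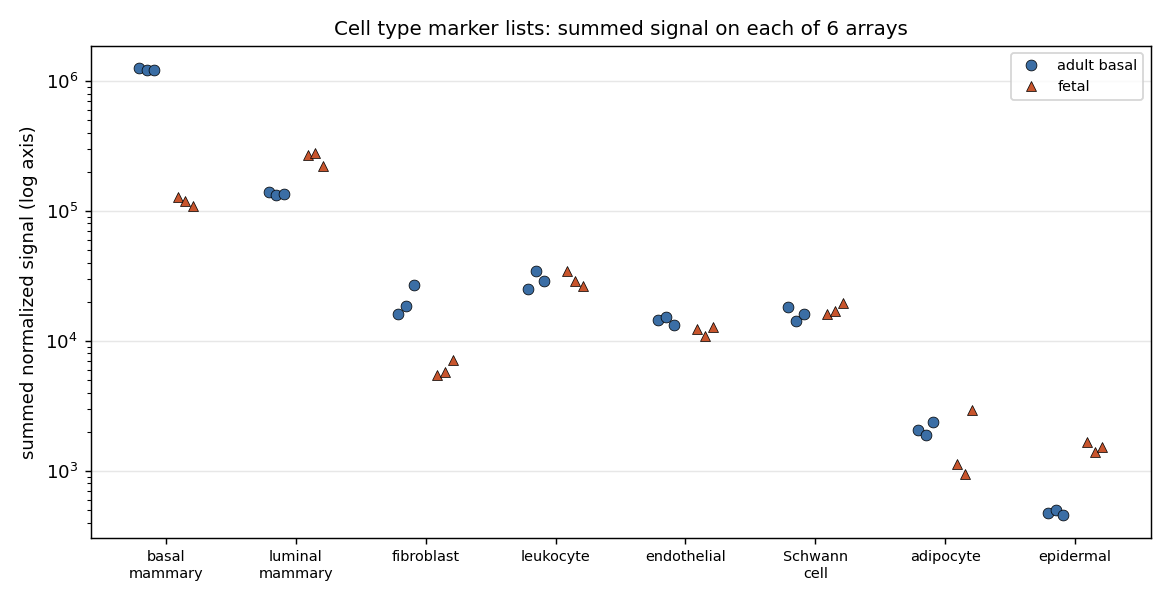
Summed linear signal of the brightest probe of each gene in 8 cell type marker lists (x axis, list; y axis, summed normalized signal on a log axis). Circles are the 3 adult basal and triangles the 3 fetal arrays. Basal, fibroblast and endothelial sums are lower and luminal and epidermal sums higher on every fetal array than on every adult basal array.

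The antigens of the sort followed the gates in part. Epcam, on which fetal cells were gated higher, gave 11.31, 11.03 and 10.94 in adult basal and 12.95, 13.08 and 12.88 in fetal samples, a difference of 1.88 (SE 0.13, Holm-adjusted p = 0.026, limma). Itga6, which encodes CD49f, differed by 0.01 (SE 0.13), Pecam1 (CD31) by -0.14 (SE 0.12) and Ptprc (CD45) by -0.31 (SE 0.24), none of which was called. Enpep, the gene of BP-1, stayed near background on all 6 arrays.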

How the data were processed

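Samples were 3 of fetal (E18.5) and 3 of adult basal cells, each hybridized to 1 Agilent array and grouped by the sample labels. The authors deposited spot intensity from Agilent Feature Extraction 11.0.1.1 (per the labels), background-subtracted and not normalized between arrays, and a table of log2 values that they quantile normalized. For the labeling kit, the labels name the low-input Quick Amp version and the methods its whole-transcript version. No column was left unused in the log2 table.

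Here the processed intensity was used without control spots and outlier spots (104 to 326 per array). Log2 values of the same probe were averaged and arrays were quantile normalized. Scanner files gave no gene names, so transcript accessions were matched without versions to RefSeq genes (GRCm38.p6), which named 48.9% of 55681 probes. A log2 signal of 5.95, the border of the lowest of 3 k-means clusters (seed 1, 100 starts), had to be reached by at least 1 population. The fit used limma 3.58.1 (lmFit, eBayes) under R 4.3.3. Tables and plots used Python 3.11.15, pandas 2.3.3, numpy 2.4.6 and matplotlib 3.10.9. The brightest probe of a gene was its main probe.

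Members, lists, tests and alternatives were chosen with earlier results of these data known. Genes named are all members, up to 4 called genes in each direction of a list (or, where none was called with Holm adjustment, the 2 largest of those past Benjamini-Hochberg adjustment), the 2 genes most like each receptor, and the sort antigens; genes outside this rule, among them Epgn, Adam12, Vim, Trp63, Krt7, Krt19, Esr1, Prlr and markers near background, were named after their values were seen. On simulated data with 20448 probes, the fit with Holm adjustment recovered 21 of 100 probes changed by 1.5 log2 units and 76 of 100 changed by 3, with 0 false calls, and Benjamini-Hochberg adjustment made 5 false calls. The number of arrays limits the precision: the median SD was 0.12 in fetal and 0.18 in adult basal samples. That replicates came from separate animals is not stated in the labels, so p-values measure the spread between these samples.

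Alternatives were 75th percentile normalization, the deposited log2 values, normexp correction with an offset of 50 (on the median spot intensity, the mean was not used here), no filter, a filter on detection above background, all probes, Benjamini-Hochberg adjustment, an offset of 16 added before log2, robust eBayes with a trend, replicate or slide as a block, the mean of a gene's probes, and each array left out. Leaving out arrays and adding blocks for the gene lists and the Benjamini-Hochberg counts was chosen after seeing the data.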

Additional observations from a re-analysis of the deposited data

How the results depend on the processing

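The number of called probes was 2270. It was 1182 with no low-signal filter, 6133 with Benjamini-Hochberg adjustment, 1302 with the replicate block, and between 953 and 1997 when each array was left out in turn. Of the members, 2 were called, and 1 of 10 was called with no filter, 7 of 9 with Benjamini-Hochberg adjustment, and between 1 and 3 when each array was left out. The count of 7 was the same without each array and with either block. Of the tested pathway list genes, counted without the immediate early genes, 10 of 61 were called. It was 6 with no filter, 22 with Benjamini-Hochberg adjustment, 6 with the replicate block, and between 4 and 8 when each array was left out.

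Every tested member kept its direction under every alternative that gave it a value, and within both slides. The changes of filter, all probes, Benjamini-Hochberg adjustment, robust eBayes and the replicate block left each difference unchanged, so they could not turn a direction. Because the populations of no tested member overlapped, the slides and the slide block could not turn one either. Leaving out an array could do so only through the repeated normalization. Egfr lost its call in 5 of 18 alternatives, among them no low-signal filter (Holm-adjusted p = 0.061, limma) and the replicate block (0.057). Ereg gained a call with the replicate block (0.04), and Btc with 75th percentile normalization (0.032) and the offset of 16 (0.025). Ereg and Btc fell below the filter with normexp correction and have no value there. Erbb4 could be fitted only without a filter, at -0.46. Replicates of the same number did not deviate together (correlations of -0.03, 0.09 and 0.05). These correlations cannot show whether samples of the same number were collected or handled together. The cause of the lost and gained calls was not tested. With 3 arrays in each population, signal near background limited Erbb4, Btc in adult basal and Ereg in fetal cells.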
